A study of Rattus norvegicus with 6 samples.

Results

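The CXC chemokines described here are 10 genes, Cxcl1, Cxcl2, Cxcl3, Cxcl6, Cxcl9, Cxcl10, Cxcl11, Cxcl12, Cxcl13 and Cxcl16, found by their symbols among the 21857 symbols of each count file. RNA-seq was used to measure them in NRCFs, the neonatal rat cardiac fibroblasts of the study, which are primary cultures from hearts of rats within 3 days of birth. The labels give the tissue as heart and spell the strain Noway, while the design text names Sprague-Dawley rats. The Vector group, labelled with the genotype WT, was transfected with the empty plasmid and gave 3 libraries, and the group labelled FTO overexpression was transfected with a plasmid carrying rat FTO, a demethylase of the N6-methyladenosine (m6A) mark in RNA, and gave 3 libraries. All 6 libraries came from cultured cells that had gone through a plasmid transfection, and the labels do not say whether the replicates were separate cultures, so p-values measure the spread between these libraries only. The family was chosen by gene name with the difference in its library-size-scaled counts (CPM) between the groups already known. The members' own differences are therefore given as a description, with intervals and without a p-value.

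Chemokines are small secreted proteins that steer migrating cells through G protein-coupled receptors, and the CXC subfamily is named for a pair of cysteines separated by another residue. Its members with a Glu-Leu-Arg motif ahead of these cysteines, here Cxcl1, Cxcl2, Cxcl3 and Cxcl6, attract neutrophils through Cxcr2 and are known targets of NF-κB. Cxcl9, Cxcl10 and Cxcl11 are induced by interferons and attract T cells through Cxcr3, whereas Cxcl12 and Cxcl13 are called homeostatic because they are made without inflammation to place stem cells and lymphocytes. Cxcl16 is made as a membrane-anchored protein, which can be shed by proteases, and binds Cxcr6. In the injured heart, fibroblasts are known as a source of chemokines that draw leucocytes to the tissue.

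The libraries held 13178952 to 17857999 counts, so that 3 counts, used here as the floor of detection, were worth 0.168 to 0.227 CPM. Libraries of the same group were not copies of each other (chi-square per degree of freedom 1.56 to 8.02 between their counts), and each was taken as a replicate. The targeted gene, Fto, was at 87.8, 89.6 and 87.4 CPM in the Vector libraries and at 93.2, 90.8 and 92.9 CPM in the libraries labelled FTO. On the log2 scale the difference was 0.06 (SE 0.0468), and it did not pass the edgeR test (adjusted p-value 0.239). For this reason the transfected group is named by its label throughout. The Fto values of the groups did not overlap, as was found upward for 35.5% of genes tested. The paper reports its own checks of the FTO plasmid in cardiac fibroblasts, by qRT-PCR, by FTO protein and by a lower m6A dot blot. It does not say whether those were the sequenced cultures.

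All 10 CXC chemokines were higher in the libraries labelled FTO, and for each of them the lowest library labelled FTO lay above the highest Vector library. The neutrophil-attracting and interferon-induced members had at most 114 counts in any Vector library and, apart from Cxcl9, at least 407 in every library labelled FTO. Cxcl12 and Cxcl16 already had at least 1147 counts in each Vector library, and they were 10.6-fold and 7.44-fold higher. Of the 10 members, 10 passed an adjusted p-value under 0.05 with a higher level, where 33.2% of the 12941 genes tested did. All 10 also reached the study's threshold, a log2 difference of 1 or more at an unadjusted p-value under 0.05, against 10.4% of genes tested that did so upward. Groups that did not overlap, with higher values in the libraries labelled FTO, were found for 35.5% of genes tested. The median fitted log2 fold change was 7.64 over the members, or 7.03 with Cxcl9 set to its lower bound, and 0.00 over all genes tested. Because the members were chosen on this contrast, nothing is read from these counts. In addition, Cxcl2, Cxcl3, Cxcl6, Cxcl9, Cxcl10, Cxcl11 and Cxcl13 passed the low-count filter only through the libraries labelled FTO. In bulk samples, fewer cells of a type and less RNA per cell cannot be told apart, and the same holds for more of either.

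**Figure D1:**
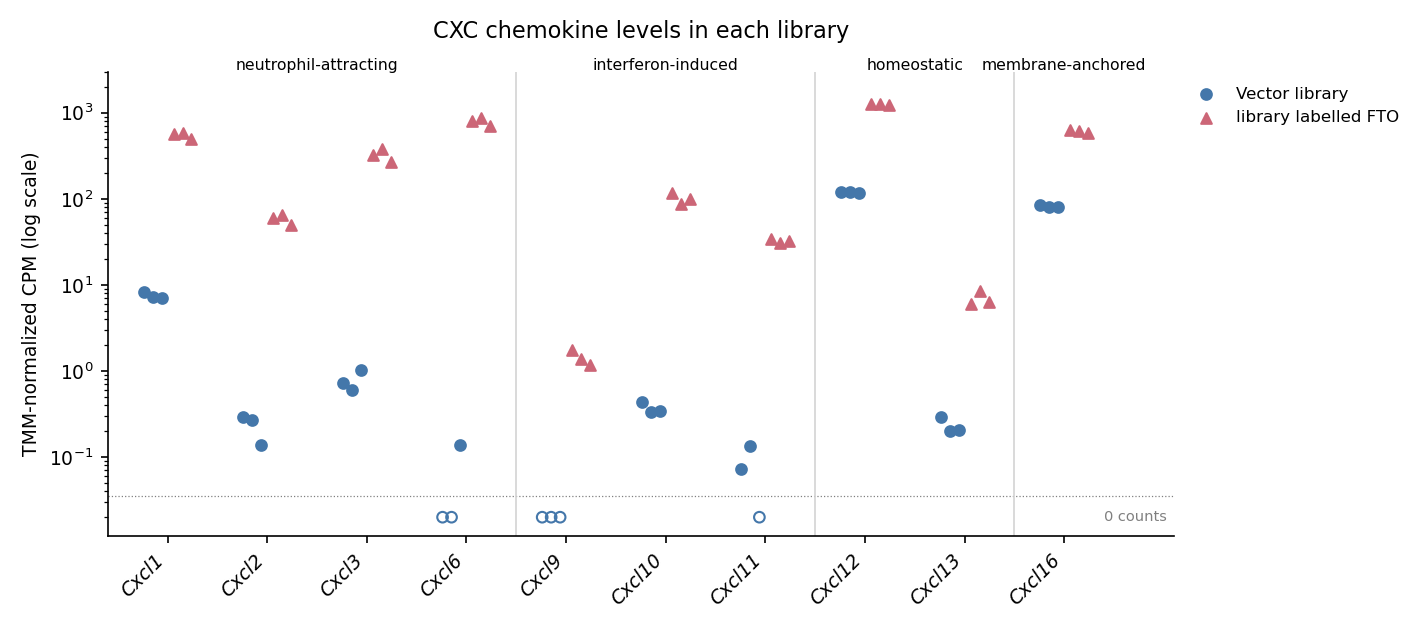
TMM-normalized CPM on a log axis of the 10 CXC chemokines in each of the 3 Vector libraries (circles) and the 3 libraries labelled FTO (triangles), with libraries at 0 counts drawn as open symbols below the dotted line. In each gene all triangles lie above all circles, and the circles of Cxcl12 and Cxcl16 lie between 79.7 and 119 CPM.

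The neutrophil-attracting members were examined first. Cxcl1 (GRO-α, also called CINC-1 in the rat) was at 8.34, 7.25 and 7.06 CPM in the Vector libraries and at 562, 577 and 494 CPM in the libraries labelled FTO. Of the 4 genes, Cxcl1 was the one clearly detected in Vector, from 102 to 114 counts per library. Its fold change was 72.1 (95% interval 63.9 to 81.4). Cxcl6 (GCP-2), a neutrophil attractant, had 0, 0 and 2 counts in the Vector libraries and 11407, 11438 and 12454 counts in those labelled FTO. In CPM it went from at most 0.139 to 800, 864 and 696, so that a gene at or under the floor in each Vector library became one with at least 11407 counts. The ratio of its summed counts was 16720, with a counting interval of 4628 to 138100, which is wide because it rests on 2 Vector reads, both of replicate 3; without that library the fitted log2 difference was 16.5 in place of 13.8.

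Cxcl3 (CINC-2) was at 0.732, 0.604 and 1.04 CPM in Vector and at 319, 381 and 271 CPM in the libraries labelled FTO. Cxcl2 (MIP-2) was at 0.293, 0.268 and 0.139 CPM in Vector, from 2 to 4 counts, and at 59.3, 64.6 and 49.0 CPM in the libraries labelled FTO. Both were thus near the floor in Vector and well detected in the other group. The ratio of summed counts was 403 (counting interval 288 to 582) for Cxcl3 and 244 (133 to 510) for Cxcl2. Summed over the 4 genes, the level went from 8.62 ± 0.657 to 1712 ± 191 CPM (SD, 3 libraries each). The intervals of Cxcl2 and Cxcl3 overlap, while that of Cxcl1 lies below both and that of Cxcl6 above both, so within this group the gene with the most Vector counts had the smallest ratio. Cxcl1, Cxcl2 and Cxcl3 are closely related in sequence, and how the counting treated reads that match more than a single gene is not given in the sources used here, so the split of reads among them is uncertain to that extent. In all 4 genes the lowest of the libraries labelled FTO was replicate 3 and the highest was replicate 2.

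Sequences before the start of transcription were compared next, because these genes are known NF-κB targets and moved together. A promoter window was held for 9 of the 10 members, Cxcl3 being the exception, each covering 250 bases before and 50 bases after the start in RefSeq (build GRCr8). The NF-κB consensus was searched on both strands as GGG, A or G, any base, A or T, C or T, again C or T, and CC. It was present in 5 of these 9 windows, those of Cxcl1, Cxcl2, Cxcl6, Cxcl10 and Cxcl11. Of 33469 promoter windows of the same length, 4.18% held it. In Cxcl1 it began 84 bases before the start, in Cxcl6 88 bases and in Cxcl2 74 bases before it. The 120 bases before the start are shown for these 3 genes, with the consensus matches in capitals and written 5′ to 3′ on the gene's strand, which is the minus strand in each case; they lie at chr14:17479322-17479441, chr14:17596418-17596537 and chr14:17467256-17467375.
Cxcl1: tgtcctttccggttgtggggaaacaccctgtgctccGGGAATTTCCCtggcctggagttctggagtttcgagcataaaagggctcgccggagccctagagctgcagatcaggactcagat
Cxcl6: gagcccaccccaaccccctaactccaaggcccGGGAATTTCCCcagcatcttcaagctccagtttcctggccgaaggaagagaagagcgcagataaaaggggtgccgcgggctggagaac
Cxcl2: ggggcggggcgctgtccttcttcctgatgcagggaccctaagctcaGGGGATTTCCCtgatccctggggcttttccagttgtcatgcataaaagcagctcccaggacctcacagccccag
Cxcl1 and Cxcl6 hold the same 11 letters in capitals, in which the consensus matches on both strands. A match describes the letters of the window and does not show that a factor binds there.

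The interferon-induced members were also near the floor in Vector and higher in the libraries labelled FTO. Cxcl10 (IP-10), a T cell attractant, was at 0.439, 0.335 and 0.346 CPM in Vector, from 5 to 6 counts, and at 117, 86.6 and 99.4 CPM in the libraries labelled FTO. The ratio of its summed counts was 272 (counting interval 168 to 477). Cxcl11 (I-TAC), which binds Cxcr3 and also Ackr3, had 1, 2 and 0 counts in Vector and was at 34.0, 30.7 and 32.3 CPM in the libraries labelled FTO. Its ratio was 464, with a counting interval of 159 to 2254 that includes the ratios of Cxcl10, Cxcl2 and Cxcl3. Without Vector replicate 2 its fitted log2 difference was 9.52 in place of 8.69.

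Cxcl9 (MIG), which of the 3 is known as the one most dependent on interferon-γ, differed from its neighbours in level. It had 0 counts in each Vector library and 25, 18 and 21 counts in the libraries labelled FTO, or 1.75, 1.36 and 1.17 CPM. It was at least 6.51-fold higher, taking 3 counts per library as the floor for Vector. It was the only one of the 10 members with fewer than 50 counts in every library labelled FTO. The summed CPM of the 3 genes went from 0.443 ± 0.0862 to 135 ± 17.3 (SD, 3 libraries each). In all 3 genes the highest of the libraries labelled FTO was replicate 1, a different replicate from the one that led the neutrophil-attracting genes.

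The promoter windows of Cxcl10 and Cxcl11 are shown to set the NF-κB consensus beside the interferon-stimulated response element (ISRE). The ISRE core, GAAANNGAAA on either strand, occurred in 1 of the 9 windows, that of Cxcl10, and in 3.92% of all windows. In Cxcl10 it began 243 bases before the start, followed by an NF-κB consensus match 187 bases before it, and in Cxcl11 the NF-κB consensus began 74 bases before the start. Capitals mark both kinds of match, on the plus strand, over 250 bases of Cxcl10 (chr14:15988816-15989065) and 120 bases of Cxcl11 (chr14:15973608-15973727), with the same stretch of Cxcl12 (chr4:152060661-152060780), also on the plus strand, as a window without either.
Cxcl10: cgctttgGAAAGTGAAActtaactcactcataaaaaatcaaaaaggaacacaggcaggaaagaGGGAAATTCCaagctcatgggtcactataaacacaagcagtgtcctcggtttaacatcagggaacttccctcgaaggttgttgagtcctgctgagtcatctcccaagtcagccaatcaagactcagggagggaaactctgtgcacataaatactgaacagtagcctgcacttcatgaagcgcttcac
Cxcl11: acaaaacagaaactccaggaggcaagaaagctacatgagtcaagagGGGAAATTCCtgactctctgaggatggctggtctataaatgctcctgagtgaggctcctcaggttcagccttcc
Cxcl12: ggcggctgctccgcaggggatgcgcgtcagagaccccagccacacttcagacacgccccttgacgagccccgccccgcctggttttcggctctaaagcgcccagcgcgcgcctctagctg
Cxcl10 and Cxcl11 share the same 10 letters at their NF-κB matches. The AP-1 motif TGANTCA was also present in Cxcl10 and Cxcl11, and in 7.33% of all windows. The hypoxia response element core ACGTG was present in Cxcl2 and Cxcl9, and in 19.3% of all windows. TATAAA was present in Cxcl10, Cxcl11 and Cxcl13, and in 14.2% of all windows. The windows of Cxcl12 and Cxcl16 held none of the 5 motifs searched.

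The homeostatic members and Cxcl16 had smaller ratios. Cxcl12 (SDF-1), which retains and recruits cells that carry Cxcr4, was at 118, 119 and 117 CPM in the Vector libraries and at 1276, 1256 and 1223 CPM in the libraries labelled FTO. Its replicates were the closest of all members, with a coefficient of variation of 0.821% in Vector and 2.12% in the libraries labelled FTO. The fold change was 10.6 (95% interval 9.94 to 11.3), and the difference of the group means was 1133 CPM. Cxcl13 (BLC), the B cell attractant of lymphoid follicles, was at 0.293, 0.201 and 0.208 CPM in Vector, from 3 to 4 counts, and at 6.03, 8.53 and 6.31 CPM in the libraries labelled FTO. Cxcl13 stayed at 113 counts or fewer in every library, with a ratio of summed counts of 29.6 (counting interval 15.9 to 62.3). The intervals of the 2 homeostatic genes do not overlap, though that of Cxcl13 covers counting error only. Its fitted 95% interval, 18.2 to 45.3, also lay above that of Cxcl12.

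Cxcl16 was at 83.9, 79.7 and 79.8 CPM in the Vector libraries and at 625, 609 and 578 CPM in the libraries labelled FTO. Its fold change was 7.44 (95% interval 6.94 to 7.98), the smallest among the 9 members with a ratio, and its replicates were nearly as close as those of Cxcl12. For the 9 members other than Cxcl9, the ratios fell in the order Cxcl6, Cxcl11, Cxcl3, Cxcl10, Cxcl2, Cxcl1, Cxcl13, Cxcl12 and Cxcl16. Neighbours from Cxcl11 to Cxcl2 in this order had overlapping intervals and cannot be ranked, while the intervals of Cxcl12 and Cxcl16 lay below all others and apart from each other. By class, the ratio of the group means of summed CPM was 199 for the neutrophil-attracting, 305 for the interferon-induced and 10.6 for the homeostatic genes, the last being almost all Cxcl12.

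**Figure D2:**
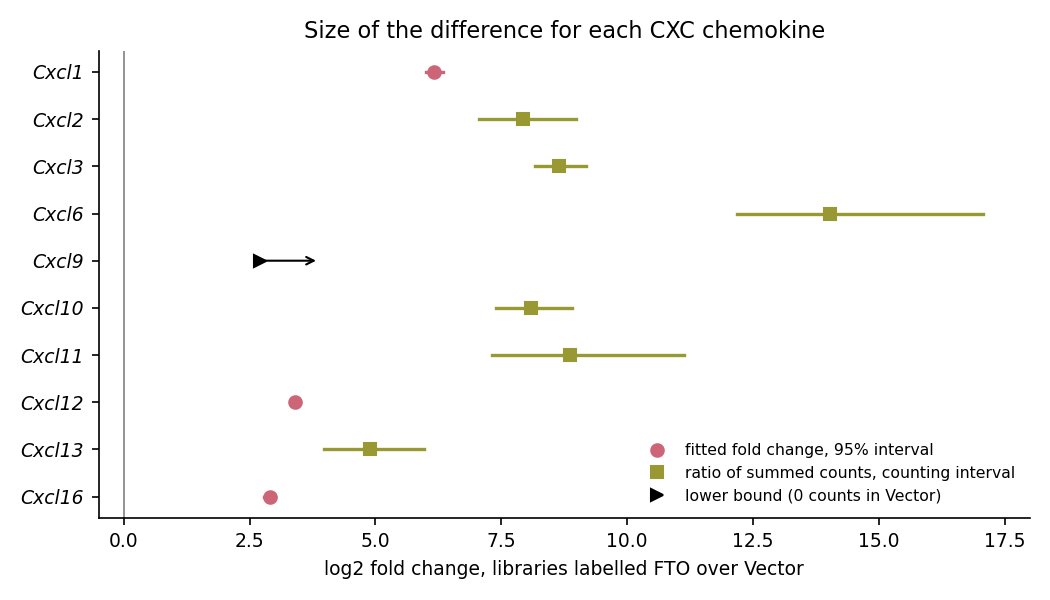
Log2 fold change of each member, libraries labelled FTO over Vector: circles are fitted fold changes with their 95% intervals, squares are ratios of summed counts with counting intervals for members under 50 summed Vector counts, and the arrow marks the lower bound of Cxcl9. The 3 genes with a fitted value, Cxcl1, Cxcl12 and Cxcl16, have narrow intervals, and Cxcl6 stands to the right of all others.

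These unequal ratios changed the make-up of the family. In the Vector libraries Cxcl12 held 55.7% to 57.4% of the CPM summed over the 10 members and Cxcl16 held 38.4% to 39.5%. In the libraries labelled FTO the share of Cxcl12 was 32.4% to 35.5% and that of Cxcl16 15.7% to 16.8%. Cxcl6 went from at most 0.0672% to between 20.2% and 22.3%, Cxcl1 from 3.43% to 3.92% in Vector to 14.3% to 14.9%, and Cxcl3 from at most 0.504% to between 7.85% and 9.83%. The shares of Cxcl12 and Cxcl16 fell although both genes were higher in CPM, as the ratios of the neutrophil-attracting genes were larger. Summed over all members, the level was 206 to 213 CPM in Vector and 3449 to 3880 CPM in the libraries labelled FTO. These are shares of counts and not of transcripts, since counts were not divided by transcript length.

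**Figure D3:**
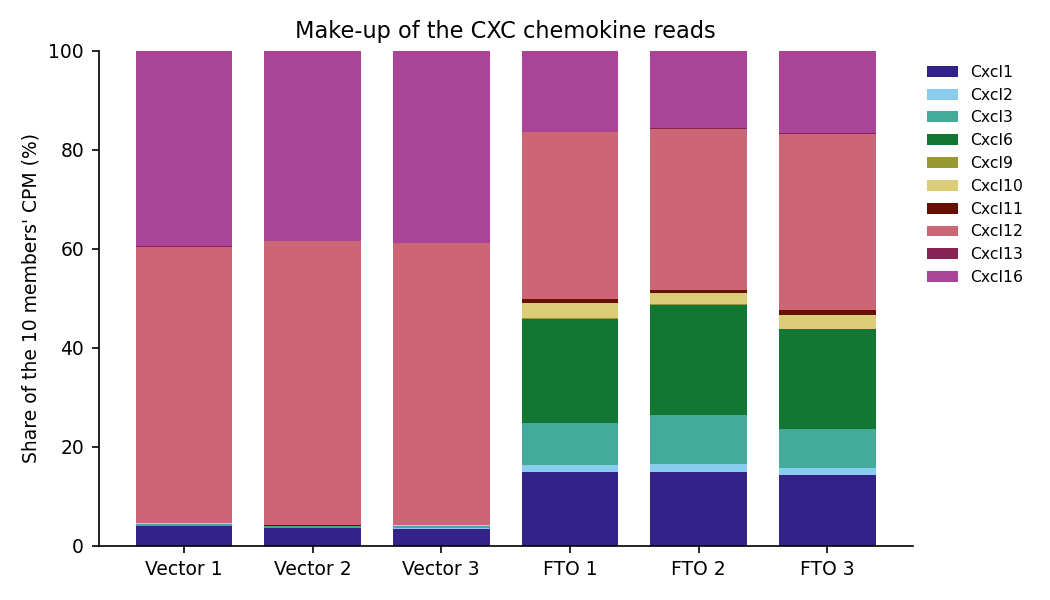
Share of each member in the CPM summed over the 10 CXC chemokines, in percent, as a stacked bar for each library. Vector bars are almost filled by Cxcl12 and Cxcl16, while in the bars labelled FTO Cxcl1, Cxcl3 and Cxcl6 together take a large part, with Cxcl6 at 20.2% to 22.3%.

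The position of the genes was examined next, using RefSeq only for gene order. Cxcl11, Cxcl10 and Cxcl9 follow each other directly on chromosome 14. The flanking genes tested, chosen by position, had smaller differences than Cxcl11 and Cxcl10. Cxcl9, known only by a lower bound, cannot be ranked against all of them. Nup54, a nuclear pore gene, was at 39.1 and 37.8 CPM, a log2 difference of -0.05 (adjusted p-value 0.488, edgeR). Art3 rose by 1.07 (adjusted p-value 4.37e-09), Scarb2 by 0.21 (adjusted p-value 0.00384) and Sdad1 by 0.25 (adjusted p-value 0.00919). Naaa, next but one to Cxcl9, fell by 2.77 on the log2 scale (adjusted p-value 1.69e-10). The 4 neutrophil-attracting genes lie in the order Cxcl2, Cxcl1, Cxcl3 and Cxcl6 on the same chromosome. Between Cxcl3 and Cxcl6 lie Pf4 (Cxcl4) and Ppbp (Cxcl7), the platelet members of the family. Pf4 rose by 0.57 on the log2 scale (SE 0.0773, adjusted p-value 1.15e-05, edgeR), between 29.4 ± 1.64 CPM in Vector and 43.6 ± 3.87 CPM, beside a fitted value of 8.66 for Cxcl3. Ppbp had 0 counts in Vector and 6, 3 and 2 counts in the libraries labelled FTO and was too low to test. On the Cxcl2 side, Mthfd2l and the growth factor gene Ereg rose by 0.95 and 1.58 on the log2 scale (adjusted p-values 6.46e-06 and 4.02e-10, edgeR). Beyond Cxcl6 the genes looked at, Rassf6, Albfm1, Afm and Afp, were not tested, so that side has no comparison.

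**Figure D4:**
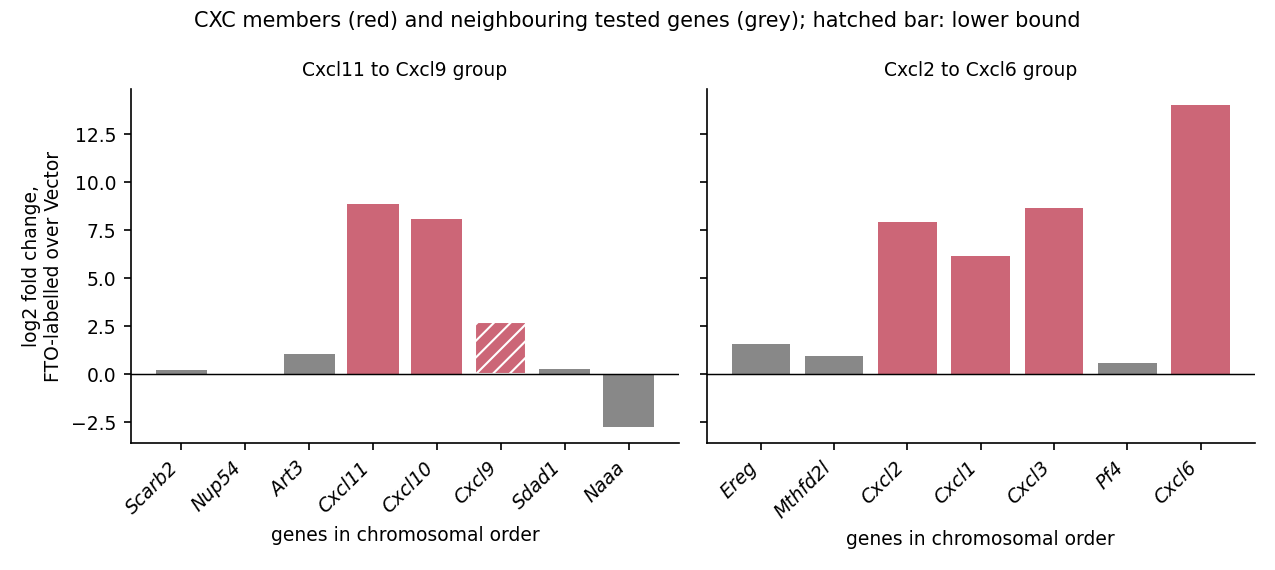
Log2 fold change, libraries labelled FTO over Vector, of the CXC members (red) and the neighbouring genes that were tested (grey), in chromosomal order within each of the 2 groups on chromosome 14; the hatched bar of Cxcl9 is a lower bound. Grey bars stay between -2.77 and 1.58, and Pf4 is a short bar between Cxcl3 and Cxcl6.

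Other CXC ligands were then compared. All 3 that could be tested, Pf4, Cxcl14 and Cxcl17, were higher, where 33.2% of all genes tested were, with a median log2 difference of 1.67 against 0.00 over all genes. Cxcl14 (BRAK), a homeostatic ligand of epithelia, had 4, 5 and 13 counts in Vector and 18, 23 and 34 in the libraries labelled FTO. Its difference was 1.67 on the log2 scale (SE 0.395, adjusted p-value 0.00168, edgeR), or 2.35 without Vector replicate 3. Cxcl17 had 6, 9 and 13 counts in Vector and 40, 43 and 64 in the other group, with a log2 difference of 2.30 (SE 0.286, adjusted p-value 4.38e-06). The ligands outside the 10 that could be tested were thus higher too, from under 20 counts per Vector library apart from Pf4. Cxcl14 and Cxcl17 passed the low-count filter only through the libraries labelled FTO, which largely fixed their direction. Nothing is therefore read from the count of higher ligands or from their median.

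On the receptor side, only 2 of 7 receptor genes in the files had enough counts to test, and they went in opposite directions. These are the 2 receptors of Cxcl12. Cxcr4, the signalling receptor, had 122, 140 and 128 counts in Vector and 45, 28 and 56 counts in the libraries labelled FTO, and fell from 9.06 ± 0.290 to 2.80 ± 0.593 CPM. On the log2 scale this was -1.67 (SE 0.161, adjusted p-value 2.47e-07, edgeR). Ackr3, an atypical receptor that removes Cxcl11 and Cxcl12 from the surroundings, had 149, 158 and 147 counts in Vector and 4579, 4198 and 5280 counts in the libraries labelled FTO. It rose by 4.88 on the log2 scale (SE 0.0621, adjusted p-value 8e-18), reaching 311 ± 14.1 CPM against 10.6 ± 0.362 CPM in Vector. Neither gene had overlapping groups. Groups without overlap, higher in the libraries labelled FTO, were found for 35.5% of genes tested, and the share in the other direction was not computed. Of all genes tested, 33.2% were called higher and 32.8% lower.

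The receptors of the other members were hardly detected. Cxcr2, the receptor of the neutrophil-attracting ligands, had 0 counts in each Vector library and 7, 0 and 3 counts in the libraries labelled FTO. Cxcr3, the receptor of Cxcl9, Cxcl10 and Cxcl11, had at most 3 counts in any library, as did Cxcr1 and Cxcr6. Cxcr5, the receptor of Cxcl13, had 3, 3 and 4 counts in Vector and 5, 12 and 8 in the libraries labelled FTO. These 5 were too low for the test, and with no filter on low counts 3 of the 7 receptor genes were called. Ackr1 was not analysed here.

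**Figure D5:**
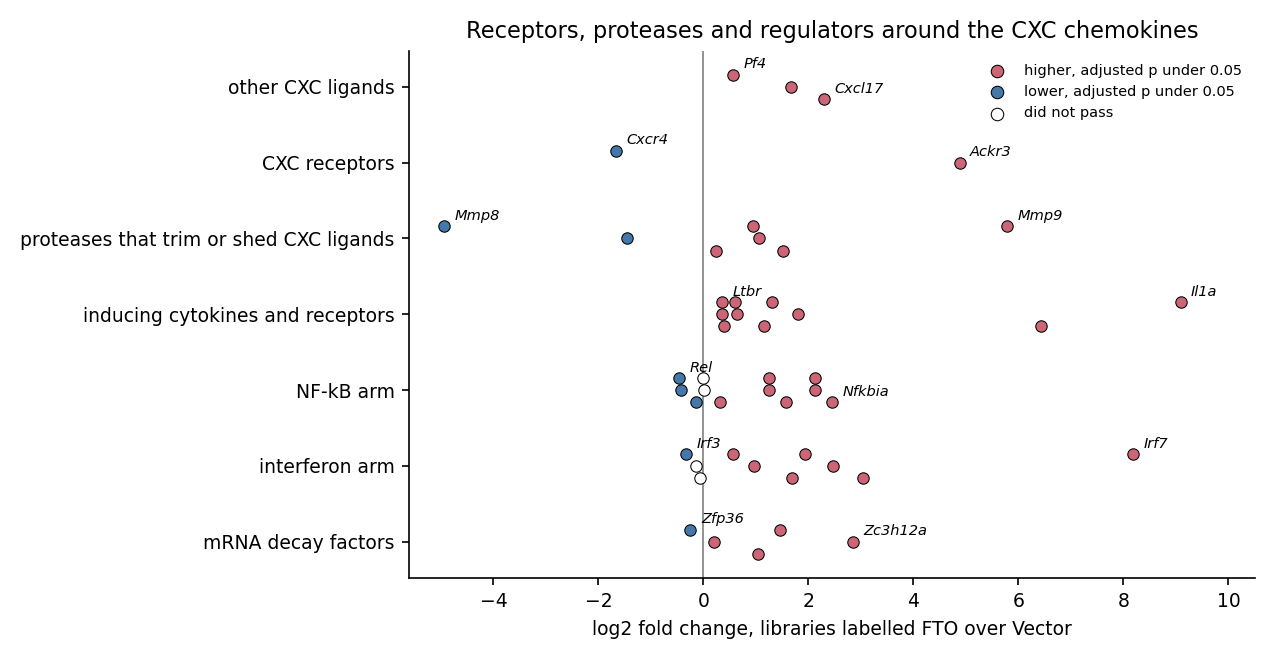
Log2 fold change, libraries labelled FTO over Vector, of every tested gene on 7 lists around the CXC chemokines, each point a gene, coloured by direction where the adjusted p-value was under 0.05 and white otherwise; the genes at either end of each list are named. Ackr3 (4.88) and Cxcr4 (-1.67) lie on opposite sides of 0, and all 10 tested inducing cytokines and receptors lie to the right of it.

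Proteases that trim or shed these ligands all differed, 5 higher and 2 lower of 7, where 65.9% of all genes tested differed in either direction; their median log2 difference was 0.935. Dpp4 and Mmp9 passed the low-count filter only through the libraries labelled FTO, and Mmp8 only through the Vector libraries, which largely fixed their directions. Adam17, which together with Adam10 can release Cxcl16 from the membrane, rose by 1.06 on the log2 scale (SE 0.0456, adjusted p-value 1.34e-11, edgeR), with 114 ± 5.25 CPM in Vector and 239 ± 3.45 CPM in the libraries labelled FTO. Adam10 rose by 0.23 (SE 0.0627, adjusted p-value 0.00439). Mmp9, a gelatinase that trims several CXC ligands, had 10 to 16 counts per library in Vector and 659 to 901 in the libraries labelled FTO, a log2 difference of 5.78 (SE 0.250, adjusted p-value 1.54e-11). Mmp8, the neutrophil collagenase, went the other way, from 31, 20 and 18 counts in Vector to 0, 2 and 0, a ratio of summed counts of 36.4 in favour of Vector (counting interval 9.71 to 307). Its fitted log2 difference of -4.94 was -7.60 without FTO replicate 2, which holds those 2 counts, and -4.31 without FTO replicate 3. Mmp12 also fell, by 1.46 on the log2 scale (adjusted p-value 2.29e-10). Dpp4, which clips the ends of Cxcl9, Cxcl10, Cxcl11 and Cxcl12, was at 0.767 ± 0.538 and 2.27 ± 0.610 CPM (log2 difference 1.52, adjusted p-value 0.00302, or 2.26 without Vector replicate 3).

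Among cytokines known to induce CXC chemokines, and their receptors, 10 of 16 genes could be tested and all 10 were higher, where 33.2% of all genes tested were, with a median log2 difference of 0.903 against 0.00 over all genes. Il1a and Il1b passed the low-count filter only through the libraries labelled FTO. Their direction was thus largely fixed by the filter and adds nothing to that count. Il1a, which encodes interleukin-1α, had 0, 1 and 1 counts in Vector and 436, 396 and 523 counts in the libraries labelled FTO, a ratio of summed counts of 642 (counting interval 177 to 5305). Il1b had 10, 7 and 1 counts in Vector and 507, 523 and 624 in the libraries labelled FTO, a log2 difference of 6.42 (SE 0.214, adjusted p-value 6.01e-13, edgeR), or 7.02 without Vector replicate 1. Both ligands thus had 10 counts or fewer in any Vector library, whereas their receptor Il1r1 was already at 349 ± 5.00 CPM and rose to 864 ± 82.5 CPM (log2 difference 1.31, adjusted p-value 1.65e-11). The interferon-γ receptor chain Ifngr1 rose by 1.80 and the type I interferon receptor chain Ifnar1 by 1.16 on the log2 scale (adjusted p-values 5.17e-15 and 3.86e-12). Transcripts of Ifnb1, Ifng, Tnf, Il17a and Ltb had 0 counts in all 6 libraries and Lta a single count.

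Genes of the NF-κB and interferon pathways were then read beside the members. Of 12 genes of the NF-κB arm, 7 were higher, 3 lower and 2 did not pass, where 33.2% of all genes tested were higher, 32.8% lower and 65.9% called in either direction. Their median log2 difference was 0.778, against 0.00 over all genes. Nfkbia, the inhibitor IκBα and itself an NF-κB target, was at 38.1 ± 1.55 CPM in Vector against 208 ± 14.9 CPM in the other group. It rose by 2.45 on the log2 scale (SE 0.0614, adjusted p-value 1.89e-14, edgeR). Nfkbiz, a nuclear member of the IκB family, rose by 2.12 (SE 0.0630, adjusted p-value 1.49e-13). Bcl3 and Relb rose by 2.13 and 1.58 (adjusted p-values 4.77e-13 and 5.99e-11). Ikbkb, a kinase of the pathway, was at 46.5 ± 2.94 and 46.1 ± 0.736 CPM, with an adjusted p-value of 0.855. The 3 lower genes, Rel (-0.46), Map3k14 (-0.44) and Chuk (-0.14), lost their call under 3, 2 and 10 of 13 alternative settings, with adjusted p-values reaching 0.0629, 0.0713 and 0.170. Among these, Rel lost it without Vector replicate 2 (0.0522) or FTO replicate 1 (0.0508), Map3k14 without Vector replicate 3 (0.0713) or FTO replicate 1 (0.0561), and Chuk without any library other than FTO replicate 1.

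Of 10 genes of the interferon arm, 7 were higher, 1 lower and 2 did not pass, beside 33.2% higher, 32.8% lower and 65.9% called either way over all genes tested. Their median log2 difference was 1.33. Irf7, the regulator that amplifies interferon production, had 64 to 80 counts in Vector and 19440 to 24204 in the libraries labelled FTO, a log2 difference of 8.19 (SE 0.0802, adjusted p-value 9.38e-19, edgeR). Jak2 rose by 3.04, Stat2 by 2.46 and Irf9 by 1.94 on the log2 scale (adjusted p-values 6.93e-17, 9.05e-16 and 3.54e-13), Stat2 and Irf9 being parts of the complex that binds the ISRE. Irf3 fell by 0.33 (adjusted p-value 9.49e-05), and Jak1 was at 405 ± 4.30 and 388 ± 33.3 CPM (adjusted p-value 0.310). Without FTO replicate 3, Jak1 and Tyk2, the 2 that did not pass, were both called lower (-0.12 and -0.20 on the log2 scale, adjusted p-values 0.0185 and 0.0351). Of 5 genes that act on the stability of chemokine mRNA, 4 were higher and 1 lower, beside the same shares over all genes, and their median log2 difference was 1.05. Zc3h12a (Regnase-1), an endonuclease for inflammatory transcripts, rose by 2.84 on the log2 scale (SE 0.0632, adjusted p-value 4.55e-15), with 19.3 ± 0.879 CPM in Vector against 138 ± 7.11 CPM. Zfp36 (tristetraprolin), which speeds the decay of AU-rich mRNA such as that of Cxcl1, fell by 0.25 (SE 0.0631, adjusted p-value 0.00294). Traf3ip2, an adaptor that stabilizes Cxcl1 mRNA downstream of interleukin-17, rose by 1.46 (adjusted p-value 3.52e-09).

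Genes whose profile over the 6 libraries was closest to each member were listed next, by the root mean square difference of log2 CPM centred on each gene's mean, among 10034 other genes with a mean of at least 100 counts. The closest matches were RT1-A1 to Cxcl16 (0.0205) and RT1-A2 to Cxcl12 (0.0269), both genes of the rat MHC class I region with near-identical relatives. Oasl, an interferon-stimulated gene, was closest to Cxcl10 (0.108), Oas1a to Cxcl2 (0.210), Rsad2 to Cxcl3 (0.260) and Rtp4 to Cxcl11 (0.239). Galnt14 was closest to Cxcl1 (0.101) and Ppl to Cxcl13 (0.182). Cxcl6 had no near match, its closest gene being Cfb of the complement system at 0.535. The match of Cxcl9 to Gsap (0.118) rests on a prior count of 2 added before logs, which compresses a gene at 0. The same prior count also compresses the other members near the floor in Vector. Cxcl11, for example, has a fitted log2 difference of 8.69 and its match Rtp4 one of 7.12. As all 6 libraries fall into 2 groups, this measure mostly reflects the size of the difference between the groups.

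Markers of the cell types that such cultures can hold were read beside these values. For the counts that follow, 33.2% of all genes tested were called higher, 32.8% lower and 65.9% either way. All 9 fibroblast markers were detected, 4 of them higher and 5 lower, with a summed level of 40100 to 40800 CPM in Vector and 19800 to 20800 CPM in the libraries labelled FTO. The lower sum mostly follows Col1a1 (mean 25809 CPM in Vector, 8268 CPM in the other group), Col3a1 (10699 and 3338) and Vim (3161 and 1250). Dcn (47.0 and 5611 CPM), Lum (48.7 and 432), Pdgfra (173 and 976) and Thy1 (155 and 234) were the 4 higher. The sum therefore does not measure the number of fibroblasts. Of 8 macrophage markers, 7 were lower and 1, Adgre1, was higher (6.81 and 31.7 CPM). Their sum was 497 to 515 CPM in Vector and 155 to 178 CPM in the libraries labelled FTO. C1qb and C1qc passed the low-count filter only through the Vector libraries, which largely fixed their direction. As with the fibroblast markers, the sum does not measure the number of macrophages. The 6 neutrophil markers summed to 0.878 to 1.27 CPM in Vector and 1.84 to 2.60 CPM in the libraries labelled FTO. S100a8, the 1 gene of this list that could be tested, had 3, 7 and 2 counts in Vector and 27, 31 and 29 in the libraries labelled FTO (adjusted p-value 2.41e-05, edgeR). It passed the low-count filter only through the libraries labelled FTO, which largely fixed its direction. Csf3r went the other way, with 9, 12 and 13 counts in Vector and 2, 1 and 1 in the other group, and was too low for the test. Of the list, S100a9, Mpo and Elane had at most 3 counts in each library, and all 6 lymphocyte markers likewise had at most 3 counts in each library. Of 5 cardiomyocyte markers, 4 were higher and 1, Tnnt2, was lower (770 and 649 CPM, a log2 difference of -0.25, adjusted p-value 5.25e-05, edgeR), and their sum was 1030 to 1050 CPM in Vector and 1300 to 1360 CPM in the libraries labelled FTO. Tnnt2 was the largest part of this sum, and the 4 higher genes rose by 2.20-fold (Ryr2) to 3.72-fold (Tnni3). Of 5 endothelial markers, 3 were higher, 1 did not pass and 1 was too low to test, with sums of 19.3 to 19.8 and 43.2 to 44.6 CPM. The part of these cells in the levels of the chemokines was not tested.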

How the data were processed

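RNA-seq counts of 6 NRCF libraries, 3 of the Vector group and 3 labelled FTO overexpression, were used. The authors deposited raw counts, a whole number per gene symbol, in a file for each library. Total RNA was used for a commercial library kit and Illumina sequencing, and the submitters' processing notes name Trimmomatic and the build rn6. The aligner, the counting program, the use of strand and the treatment of multi-mapping reads are not given in the sources used here. Groups were taken from the genotype labels.

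Genes were kept with filterByExpr of edgeR (minimum count 10), which left 12941 of 21857. TMM factors were used for scaling, and the groups were compared, without a covariate, by the two-sided quasi-likelihood test of edgeR 4.0.16 in R 4.3.3, with Benjamini-Hochberg adjustment over all genes tested. CPM values are TMM-normalized, and SE follows from the estimate and its F value. Members with under 50 summed Vector counts are given as a ratio of summed counts with an exact binomial 95% interval, which covers counting error only, since the reads carry no molecular identifiers. Against 0 counts in all Vector libraries, a lower bound over 3 counts per library is given.

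The members and lists were chosen with earlier results of these data known. All 10 members were named, and of each list up to 4 genes with the largest change past the threshold, at least 1 that did not pass, and a few more with their values in view. The alternatives tried were edgeR replaced by DESeq2 1.42.0 or limma-voom (limma 3.58.1), DESeq2 size factors, library size alone, no filter, a mean of at least 10 counts, the replicate number as a block, and leaving out each library. The procedure was tested on simulated counts. Promoter windows came from RefSeq (GRCr8), which is not the build of the counts. No protein sequences were used here.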

Additional observations from a re-analysis of the deposited data

How the results depend on the processing

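All 10 members kept their direction and passed the adjusted threshold under each of 13 alternatives. As the members were chosen on this contrast, nothing is read from this count. In the main fit 33.2% of all genes tested passed with a higher level. The count of genes called over the whole table ran from 7795 (DESeq2) to 9009, and Fto did not pass in any, with log2 fold changes from 0.0508 to 0.0780. The fitted log2 fold changes of members near the floor moved most, from 13.3 to 16.5 for Cxcl6 (the highest without Vector replicate 3, which holds its only 2 Vector counts) and from 5.35 to 7.47 for Cxcl9, while Cxcl12 stayed between 3.38 and 3.42. Of the lists, the NF-κB arm had 8 to 10 genes called and the interferon arm 8 to 10. Of 767 values followed for 59 single genes under the alternatives, 745 kept direction and call, 15 lost a call, 2 gained a call and 5 changed sign. Leaving out each library, Ikbkb ran from -0.0577 to 0.0314, Ikbkg from -0.0878 to 0.144 and Jak1 from -0.124 to 0.00392. The sign changed for Ikbkb without Vector replicate 3 (0.0314), for Ikbkg without Vector replicate 3 (-0.0155), FTO replicate 1 (-0.0340) or FTO replicate 3 (-0.0878), and for Jak1 without FTO replicate 2 (0.00392), none of which passed the threshold there; the cause was not tested.

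No pairing by replicate number was seen. Deviations from the group means of same-numbered libraries correlated at 0.00284, -0.0693 and 0.0207, beside -0.0935 to 0.0873 for libraries with other numbers. With so few libraries per group, such correlations cannot show that the cultures were unpaired. In the fit with a replicate block, 8399 genes were called over the whole table, all 10 members among them, and Fto was at 0.0644; Chuk lost its call. Depth limits Cxcl9, known only by a lower bound, and the ratios of Cxcl6, Cxcl11, Cxcl2 and Cxcl13, which rest on 2 to 10 summed Vector counts.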
